A study of Danio rerio with 9 samples.

Results

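The outermost 500 kb of 24 zebrafish chromosomes held 2520 of the 126838 regions of accessible chromatin found in sperm. The regions came from peak lists of 9 sperm ATAC-seq libraries. A peak was counted as lying at a chromosome end when it was on chromosomes 1 to 25 other than 4 and either started below position 500000 (left end) or ended within 500000 bp of the farthest peak on its chromosome in any list (right end). Overlapping peaks of different libraries (by 1 bp or more) were joined into 1 region, and a library with a peak in a region is said to have detected it. The 48 ends add up to 24 Mb, or 1.89% of the 24 chromosomes, and the other 98338 regions of the same chromosomes served as background. Membership depends on position alone, so neither peak strength nor group entered the choice.

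ATAC-seq uses the Tn5 transposase, which inserts adapters into DNA that is not tightly packed, so that reads pile up over open chromatin. Spermatozoa had been taken from adult zebrafish (Danio rerio) 7 days after cardiac cryoinjury, in which a part of the heart is frozen (5 libraries, called injured), and from uninjured fish (4 libraries, called control). Each library was made from 100000 spermatozoa, and tissue is given as sperm in both groups. The labels used here name no strain and no age beyond adult, and they do not say whether a library came from 1 male or from several. The spread between libraries, on which every p-value rests, may therefore be technical. No annotation of the build of the files (GRCz11) was used here, so the purity of the sperm was not checked against marker genes and no gene is named.

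Telomeres are arrays of a short repeat that cap chromosomes, and subtelomeres are the stretches next to them, in many vertebrates a mixture of genes, repeats and segments copied between chromosomes. Zebrafish sperm differ from those of mammals in keeping nucleosomes in place of protamines. In copied sequence a short read can match more than 1 place, and the handling of such reads is not stated in the sources used here. Its part in the results was not tested. Left ends were counted from the first base of the assembled chromosome, whereas right ends were counted from the last peak seen, so each right end holds at least 1 peak at its tip by construction. The name subtelomere fits these windows only as far as the assembly and the last peak reach the true ends.

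The lists held 15508 to 29622 peaks in injured and 30126 to 45277 in control libraries. Every injured list was therefore shorter than every control list. Depth per library is unknown, since the lists carry no read totals, and a site without a peak was only not detected. Because longer lists may come from deeper libraries, values were also computed on equal-length lists of the 15508 best-scored peaks of each library. Injured library 1 had the lowest values of peak width, with a shortest peak of 119 bp and a median width of 190 bp. The other libraries had 133 to 197 bp and 206 to 281 bp.

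Chromosome ends were denser in peaks than the rest of the same chromosomes in every library. The ends of injured libraries 1 to 5 held 804, 518, 380, 566 and 380 peaks, and those of control libraries 1 to 4 held 660, 811, 684 and 895. Per Mb this was 33.5, 21.6, 15.8, 23.6 and 15.8 peaks in injured and 27.5, 33.8, 28.5 and 37.3 in control libraries. In the rest of the chromosomes the injured libraries had 18.2, 15.9, 9.46, 14.2 and 10.7 peaks per Mb and the control libraries 19.6, 20.8, 18.4 and 27.7. The ratio of the 2 densities ran from 1.35 in control library 4 to 1.84 in injured library 1.

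The density ratio averaged 1.54 over the 9 libraries (mean log2 ratio 0.62 ± 0.15, SD, n = 9). It exceeded 1 in 9 of 9 libraries (exact two-sided sign-flip permutation p = 0.00391, adjusted p = 0.00391 over the 7 measures compared within libraries, the smallest the test can give). In the equal-length lists the ratio was 1.85 (mean log2 ratio 0.89 ± 0.18, SD, n = 9; exact permutation p = 0.00391). All libraries were mapped to 1 genome, so these tests cover the spread between libraries and not that between genomes or mapping methods.

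**Figure D1:**
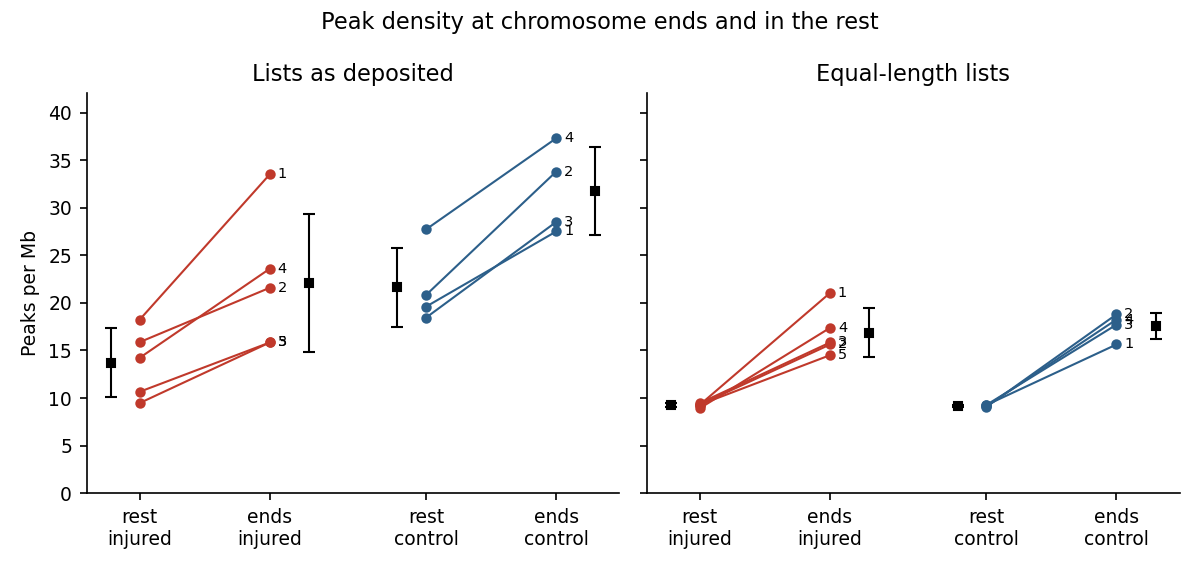
Peaks per Mb in the rest of the chromosomes and at their ends, for each library (circles joined by a line, labelled by replicate number), in the lists as deposited and in the equal-length lists. Squares with bars are group means ± SD (5 injured, 4 control), and every line rises from the rest to the ends.

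Mean density was above that of the chromosome middles beyond the last 500 kb too. In the lists as deposited, density was 14.7 ± 4.89 peaks per Mb more than 10 Mb from both ends (SD, n = 9). It was 19.9 ± 6.08 on the left side and 19.6 ± 6.78 on the right side at 5 to 10 Mb from the end, and 21.4 ± 6.71 and 25.3 ± 7.68 at 2 to 5 Mb (SD, n = 9). In the flanks at 1 to 2 Mb it was 21.2 ± 7.13 on the left and 27.3 ± 9.19 on the right, and at 0.5 to 1 Mb it was 19.96 ± 6.58 and 24.8 ± 9.09 (SD, n = 9). Just inside the 500 kb limit, at 450 to 500 kb, left ends had 20.5 ± 6.29 and right ends 30.6 ± 10.9 peaks per Mb, and just outside it, at 500 to 550 kb, 18.1 ± 7.17 and 24.8 ± 8.31 (SD, n = 9). At equal length the corresponding values were 13.7 ± 3.01 and 21.2 ± 5.42 inside and 9.63 ± 3.18 and 16.2 ± 2.67 outside (SD, n = 9). The mean was thus lower in the bin just outside the limit on both sides, which was not tested. Other bins near the limit had the opposite order in the lists as deposited. Left ends had 27.5 ± 8.78 peaks per Mb at 550 to 600 kb, and right ends 23.8 ± 7.63 at 400 to 450 kb (SD, n = 9). A step at the limit is therefore not shown.

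Against the neighbouring flanks at 0.5 to 2 Mb, the ends exceeded by a smaller margin than against the whole chromosome. On the left the ratio of ends to flanks was 1.14 and above 1 in 9 of 9 libraries (exact permutation p = 0.00391, adjusted p = 0.00879 over 9 comparisons). On the right it was 1.11 and above 1 in 8 of 9 libraries (exact permutation p = 0.00781, adjusted p = 0.0117). Without the outermost 100 kb, left ends no longer exceeded the flanks, with 20.8 ± 6.18 against 20.8 ± 6.92 peaks per Mb (SD, n = 9; ratio 1.01, 0.903 to 1.12 over libraries, exact permutation p = 0.730). Right ends without the outermost 100 kb had a ratio of 1.08 (0.977 to 1.17, exact permutation p = 0.0234, adjusted p = 0.0301).

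Right ends were denser than left ends. The 24 right ends had 29.1 ± 8.78 and the 24 left ends 23.6 ± 6.85 peaks per Mb (SD, n = 9), a ratio of 1.23 that was above 1 in 9 of 9 libraries (exact permutation p = 0.00391, adjusted p = 0.00879). The flanks showed the same order, since the right flanks at 0.5 to 2 Mb had 26.5 ± 9.10 and the left flanks 20.8 ± 6.92 peaks per Mb (SD, n = 9).

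**Figure D2:**
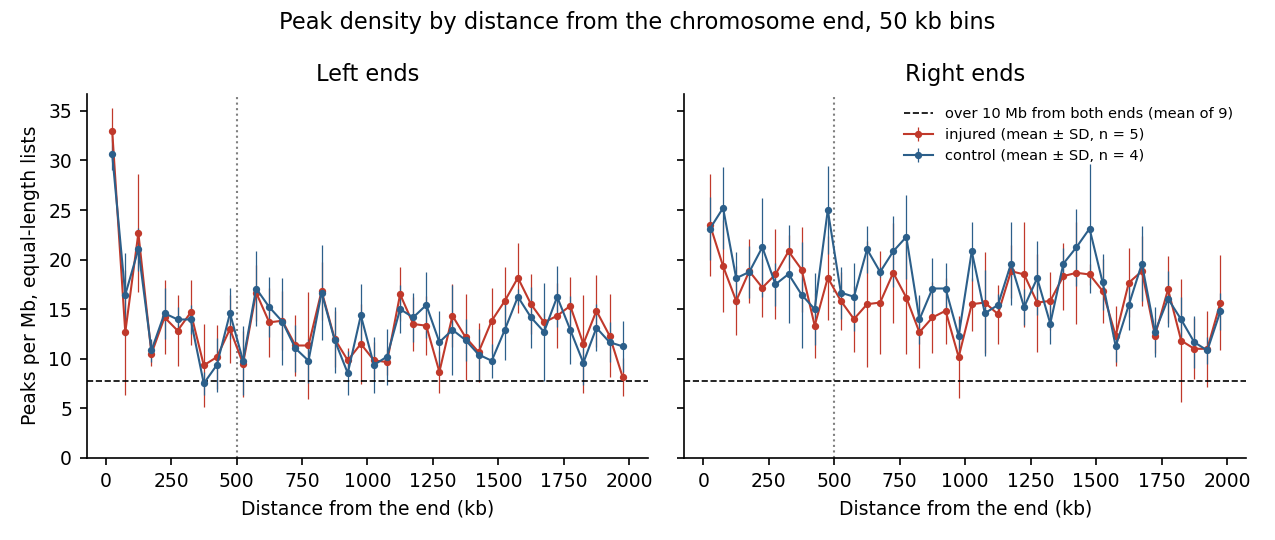
Peaks per Mb in 50 kb bins of distance from the chromosome end, left and right ends summed over 24 chromosomes, in the equal-length lists. Points are group means with bars of 1 SD (red injured, n = 5; blue control, n = 4), the dotted line is the 500 kb limit and the dashed line the density over 10 Mb from both ends. Left ends peak in the first 50 kb. Group means on both sides lie above the dashed line (7.71) out to 2 Mb, except the control mean of left ends at 350 to 400 kb (7.5).

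Within the ends, peaks were denser toward the tips on the left. On the right the excess was smaller and partly set by the rule. The outermost 100 kb held 34.0 ± 10.2 peaks per Mb and the next 400 kb 24.5 ± 7.22 (SD, n = 9), a ratio of 1.38 with 1.22 as the lowest and 1.51 as the highest library (exact permutation p = 0.00391). At left ends, where the rule places no peak, the ratio was 1.67, with 34.8 ± 9.77 against 20.8 ± 6.18 peaks per Mb (SD, n = 9; exact permutation p = 0.00391). At right ends the mean log2 ratio was 0.22, with ratios between 1.02 and 1.37 over libraries (exact permutation p = 0.00391) and down to 0.994 at equal length. There the last 1 kb holds the peaks that set the boundaries, so that test draws on peaks placed by the rule. Right ends had 28.3 ± 15.8 peaks per Mb at 1 to 10 kb and 28.2 ± 8.13 at 250 to 500 kb (SD, n = 9). The first 10 kb of left ends was denser than the rest of those ends, at 87.5 ± 16.4 peaks per Mb against 22.3 ± 6.71 from 10 to 500 kb (SD, n = 9). That ratio was 4.03, from 3.09 to 5.16 over the libraries (exact permutation p = 0.00391), and 5.37 in the equal-length lists.

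These counts come from few sites. The first 10 kb of the 24 left ends together held 23, 21, 16, 23 and 16 peaks in injured libraries 1 to 5 and 20, 21, 20 and 29 in control libraries 1 to 4. A peak lay in the first 1 kb of 6 to 9 of the 24 left ends, depending on the library. On chromosomes 1, 2, 10, 15, 16 and 24 that was so in 9 of 9 libraries, whereas 14 left ends had no peak in the first 1 kb in any library. Chromosome 12 had such a peak in 7 libraries, chromosome 11 in 4, and chromosomes 7 and 23 in 1 each. Most left tips were therefore occupied in all libraries or in none, with chromosomes 11 and 12 in between. Of the left ends with no tip peak, that of chromosome 19 had its nearest peak farthest away, 38.3 kb from the first base.

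Most of the left tips occupied in all libraries carried strong peaks. Peak strength is given here as the percentile of the deposited score within a library, where 100 is the best-scored peak, because the scale of the score is not stated. The median percentile over the 9 libraries was 99.96 at the left tip of chromosome 10, 99.9 on chromosome 15, 99.8 on chromosome 2, 99.5 on chromosome 24, 97.2 on chromosome 16 and 80.4 on chromosome 1. The tip of chromosome 1 was the most uneven of the 6, with 37.1 in injured library 4, 33.1 in control library 1 and 16.5 in control library 3. Of the tips found in fewer libraries, those of chromosomes 11 and 12 had medians of 99.4 and 91.3, and the single calls on chromosomes 7 and 23 lay at 97.2 and 11.4. Over all peaks in the first 10 kb of left ends the median percentile was 97.2 ± 1.60, against 56.1 ± 6.18 from 10 to 100 kb and 59.5 ± 3.01 from 100 to 500 kb (SD, n = 9).

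At right ends 5 tips had a peak within 1 kb of the last peak in 9 of 9 libraries, namely those of chromosomes 3, 17, 19, 21 and 24. At 16 of the 24 right ends only 1 library had a peak there, which is the peak that set the boundary. The right tips of chromosomes 6, 10 and 13 had a peak in 3, 2 and 4 libraries. Leaving out the peaks that set the boundaries changed the mean log2 ratio of ends to rest from 0.62 to 0.61.

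The ends differed widely among themselves. Mean peaks per library and end ran from 5.11 to 24.3 with a median of 12.4 over the 48 ends. Among 2472 windows of 500 kb inside the same chromosomes the median was 5.78 and the 90th percentile 19.0. By that measure 47 of 48 ends lay above the interior median but 3 above the interior 90th percentile. The exception was the left end of chromosome 15, at 5.11. Against the rest of their own chromosome 40 of the 48 ends were denser on average. These are descriptions with no test, since windows share their libraries.

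The most regions were found on the right end of chromosome 22 with 109, the left end of chromosome 12 with 87 and the right end of chromosome 16 with 86. The right end of chromosome 22 held 24, 26, 12, 14 and 12 peaks in injured libraries 1 to 5 and 47, 25, 26 and 33 in control libraries 1 to 4. Control library 1 was the highest there and the groups overlapped. At equal length the means were 11.4 peaks in injured and 15.5 in control libraries, and this difference was not tested by itself. The fewest regions were on the left end of chromosome 15 with 17, the right end of chromosome 1 with 29, and the left ends of chromosomes 9 and 16, tied at 30. The left end of chromosome 15 held 3 to 7 peaks per library and was less dense than the rest of its chromosome in all 9 libraries, although its tip carried 1 of the strongest peaks.

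Of the 24 chromosomes, 22 had denser ends than interior on average over libraries, and 12 did so in 9 of 9 libraries. The ratio was highest on chromosome 13, at 2.65 ± 0.478, and lowest on chromosomes 15 and 8, at 0.965 ± 0.169 and 0.987 ± 0.220 (SD, n = 9). The interiors of these chromosomes differed as well, with 14.1 peaks per Mb on chromosome 13, 17.5 on chromosome 15 and 24.4 on chromosome 8.

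**Figure D3:**
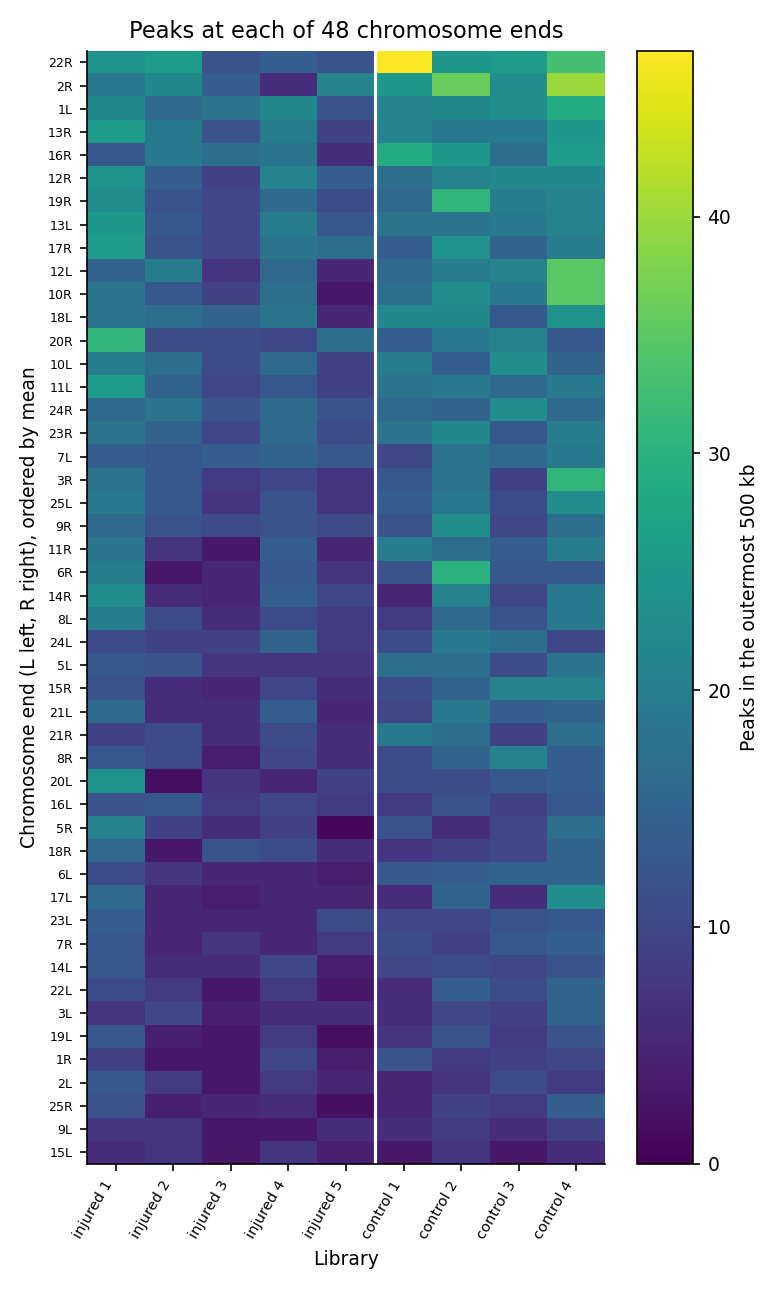
Peaks in the outermost 500 kb for each of the 48 chromosome ends (rows, ordered by mean) and each library (columns, injured left of the white line), in the lists as deposited; color gives the number of peaks. The right end of chromosome 22 is highest, up to 47 peaks in control library 1, and the left end of chromosome 15 is lowest, with 3 to 7.

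Peaks at the ends were stronger and slightly wider than peaks elsewhere. The median score percentile of end peaks was 60.5, 64.9, 63.6, 62.9 and 64.5 in injured libraries 1 to 5 and 58.8, 62.1, 59.2 and 62.6 in control libraries 1 to 4. Peaks in the rest had medians between 46.2 and 50.4. The difference averaged 13.8 ± 2.54 percentile points (SD, n = 9) and was positive in 9 of 9 libraries (exact permutation p = 0.00391).

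Ends held 6.22% ± 0.772 of the best-scored 10% of the peaks on the 24 chromosomes and 2.03% ± 0.389 of the last-scored 10% (SD, n = 9; exact permutation p = 0.00391). Against the flanks at 0.5 to 2 Mb the percentile was higher by 6.21 ± 4.14 points (SD, n = 9), in 8 of 9 libraries (exact permutation p = 0.00781, adjusted p = 0.0117). Ends without their outermost 100 kb still exceeded the rest by 12.5 ± 2.05 points (SD, n = 9; exact permutation p = 0.00391), so the tips alone do not make up the difference from the rest. They were close to the adjoining flanks, however. Median percentiles at 100 to 500 kb were 59.5 ± 3.01 on the left and 61.2 ± 3.62 on the right (SD, n = 9). At 0.5 to 1 Mb they were 58.8 ± 6.27 and 60.8 ± 3.63, and at 1 to 2 Mb 55.4 ± 3.91 and 53.3 ± 3.32 (SD, n = 9). This was not tested. Median width was 259 ± 33.8 bp at ends and 236 ± 30.8 bp elsewhere (SD, n = 9), a difference of 22.9 ± 9.01 bp (exact permutation p = 0.00391).

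End regions also recurred more often between libraries than regions in the rest of the chromosomes. Of the 2520 end regions, 1531 (60.8%) were detected in 1 library and 73 (2.90%, 95% Wilson interval 2.31% to 3.63%, counting error only) in all 9. In the rest of the chromosomes 63.2% were detected in 1 library and 1256 regions (1.28%) in all 9. Per Mb the ends had 63.8 regions found in 1 library and the rest 50.01, a ratio of 1.28, whereas for regions found in all 9 libraries the densities were 3.04 and 1.01, a ratio of 3.01. The ratio did not rise at each step between, but it was highest for regions of all 9 libraries, and at equal length the corresponding ratios were 1.36 and 3.29. Regions are not replicates, and these shares were not tested.

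**Figure D4:**
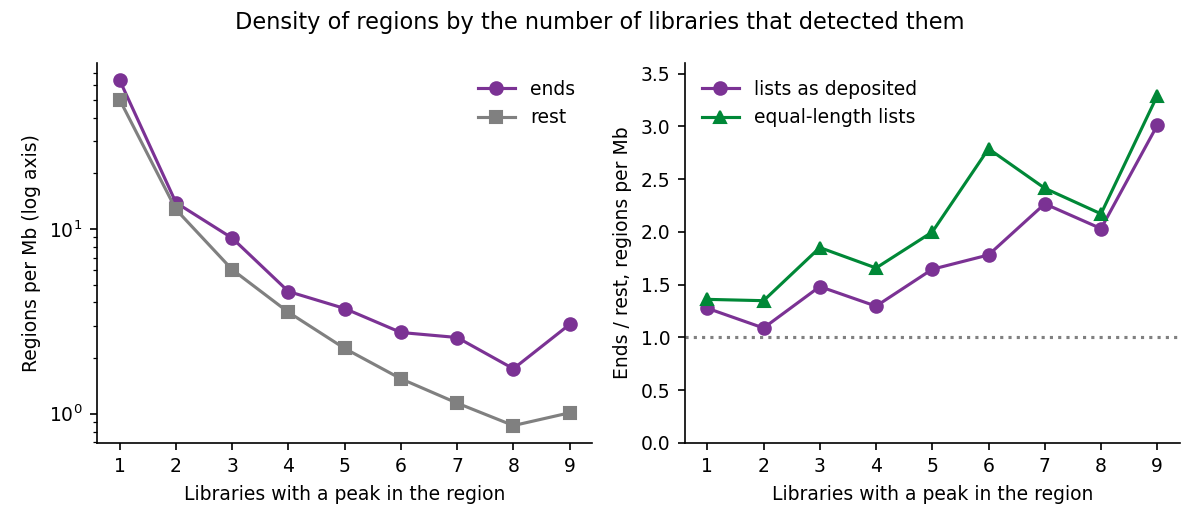
Left, regions per Mb (log axis) against the number of libraries that detected them, at chromosome ends and in the rest, in the lists as deposited. Right, the ratio of ends to rest for the lists as deposited and the equal-length lists. The ratio is lowest for regions of 1 or 2 libraries and highest, at 3.01 and 3.29, for regions of all 9.

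The 73 end regions detected in all 9 libraries lay on 36 of the 48 ends, 38 of them on left and 35 on right ends. By comparison 726 of the 2472 interior windows (29.4%) held such a region. In the first 10 kb of left ends there were 11, or 45.8 per Mb, and in the last 10 kb of right ends 5, or 20.8 per Mb. Of these 5, the regions on chromosomes 3, 17, 19 and 21 hold the peak that set the boundary. The region on chromosome 24 lies 0.463 kb from it. The density at right tips is therefore partly set by the rule. From 100 to 500 kb the density was 2.08 per Mb on either side, and more than 10 Mb from both ends it was 0.864. The adjoining flanks were close to the ends, however. At 100 to 500 kb 2.41% of left and 1.87% of right regions were detected in all 9 libraries. At 0.5 to 1 Mb the shares were 2.47% and 1.99%. At equal length the density at 100 to 500 kb was 1.35 per Mb on the left and 1.77 on the right. At 0.5 to 1 Mb it was 1.75 and 1.58. Without the outermost 100 kb, an excess over these flanks is therefore not shown, and it was not tested. The median of the score percentiles of the 73 end regions was 96.9, against 91.9 for regions of all 9 libraries in the rest. Their median width was 766 bp, against 773 bp in the rest, close to each other, and these values were not tested.

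The left end of chromosome 7 held 6 of them, the most of any end. Of these, 4 formed a row at chr7:2650-4851, chr7:5079-6357, chr7:6871-9015 and chr7:9290-10188 (GRCz11), a group chosen after its values had been seen. Their median score percentiles were 98.7, 99.2, 99.4 and 98.2. The left end of chromosome 5 and the right end of chromosome 17 held 5 each.

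**Figure D5:**
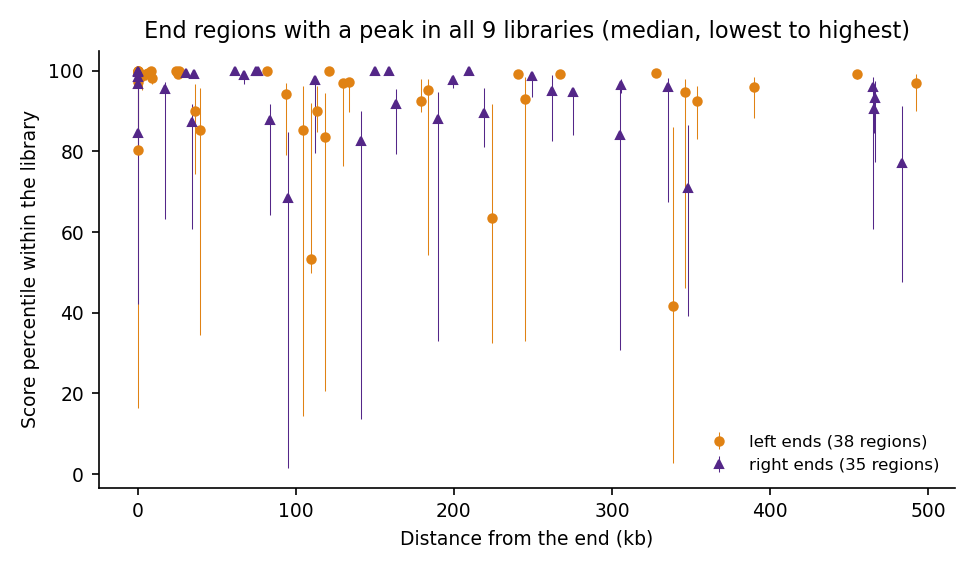
Score percentile within the library against distance from the end in kb, for the 73 end regions with a peak in all 9 libraries (circles left ends, 38 regions; triangles right ends, 35 regions). Symbols are the median over 9 libraries and bars run from the lowest to the highest library. Of the 73 symbols 54 lie above the 90th percentile.

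The strongest region of all ends lay at chr17:53384678-53384897, 75.1 kb from the right end and 220 bp wide. By score it ranked 2, 2, 2, 3 and 1 among all peaks of injured libraries 1 to 5 and 4, 1, 2 and 2 in control libraries 1 to 4. The called peak was 216 to 220 bp wide and ended at position 53384897 in all 9 libraries. A site among the 4 best-scored of every library was thus called with nearly the same borders each time and was far narrower than the typical shared region.

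Its neighbour at chr17:53383100-53383772, 905 bp away and 673 bp wide, was the second strongest. It ranked 11, 12, 13, 10 and 8 in injured and 9, 7, 19 and 11 in control libraries. Both groups were spread over the same ranks in this pair.

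Next came the left tip of chromosome 10, chr10:11-1216, which starts 10 bp from the first base. It ranked 14, 10, 26, 21 and 18 in injured libraries 1 to 5 and 39, 14, 11 and 19 in control libraries 1 to 4. Other tips among the 10 strongest were chr3:62627007-62628487, which is the right boundary of chromosome 3 (ranks 11 to 54), and chr15:4-921 (ranks 13 to 91). Near a tip lay chr16:8250-8888, 8.25 kb from the left end (ranks 15 to 93).

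Farther in were chr7:74121632-74122172 (ranks 15 to 41), chr18:50794042-50794846 (ranks 17 to 44) and chr12:49031900-49032574 (ranks 15 to 45), at 159, 210 and 150.1 kb from their right ends. Their peaks covered nearly the same bases in each library, 532 to 541 bp, 771 to 800 bp and 665 to 675 bp. The remaining one, chr25:26071-27012 at 26.1 kb from the left end, ranked 9 to 30 in 8 libraries but 574 in control library 3. It was the only one of the 10 with a rank over 100.

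The widest end regions were also shared by all 9 libraries. Width here is that of the peaks joined over libraries, so it can grow with the number of libraries that have a peak. The first, chr20:55166342-55169840, spanned 3499 bp at 30.5 kb from the right end and was called as 1 to 5 peaks per library, with ranks from 78 to 200. Second was chr23:45922215-45924937 with 2723 bp, called as 2 to 4 peaks (ranks 805 to 3817), followed by chr7:2650-4851 with 2202 bp, called as 1 to 3 peaks (ranks 188 to 1180). The site on chromosome 23 was thus called in several pieces in every library, and those on chromosomes 20 and 7 in some libraries.

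The next question was whether the ends differ between sperm of injured and of uninjured fish. The mean number of end peaks was 529.6 ± 174 in the 5 injured libraries and 762.5 ± 110 in the 4 control libraries (SD). The groups overlapped, since injured library 1 with 804 exceeded 2 control libraries, and the difference of -233 did not pass the test (exact permutation p = 0.0714, adjusted p = 0.251 over 10 measures). Without injured library 1 the difference was -301.5 (exact permutation p = 0.0286), and for right ends alone it was -140 (exact permutation p = 0.0476). These counts come from lists of unequal length, since every injured list was shorter than every control list. In lists of equal length the means were 405 ± 61.1 and 422 ± 33.2 peaks (SD over 5 and 4 libraries; exact permutation p = 0.643).

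The share of peaks that lay at ends was 3.43%, 2.56%, 3.13%, 3.10% and 2.79% in injured libraries 1 to 5 and 2.64%, 3.04%, 2.90% and 2.53% in control libraries 1 to 4. The widest 95% Wilson interval of a single share, that of injured library 3, ran from 2.83% to 3.46%, from counting error only. The difference of 0.226 percentage points was smaller than the SD of either group and did not pass the test (exact permutation p = 0.302, adjusted p = 0.335). It had the other sign at equal length, -0.171 points, from 3.40% ± 0.511 in 5 injured and 3.57% ± 0.303 in 4 control libraries (SD; exact permutation p = 0.571).

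No other measure of the ends passed adjustment. Nearest at the lists' full length was the density of the first 10 kb of left ends relative to 10 to 500 kb, at 4.56 ± 0.740 in the 5 injured against 3.53 ± 0.356 in the 4 control libraries (SD; exact permutation p = 0.0556, adjusted p = 0.251). It was 5.54 ± 0.770 against 5.25 ± 0.664 at equal length (SD; exact permutation p = 0.548). The excess in score percentile was 14.7 ± 2.30 points in the 5 injured against 12.6 ± 2.60 in the 4 control libraries (SD; exact permutation p = 0.214).

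Recurrence was also compared. In the equal-length lists 74.6% ± 3.45 of an injured library's end regions had a peak in some other library, against 79.7% ± 2.64 for a control library (SD over 5 and 4 libraries). The groups did not overlap, at 70.0% to 77.7% and 78.1% to 83.6% (exact permutation p = 0.0397, adjusted p = 0.397). In the lists as deposited the order was the opposite, at 76.5% ± 6.49 and 70.3% ± 1.67 (exact permutation p = 0.135). The direction of both the recurrence and the share of end peaks thus changed with the length of the lists, and neither passed adjustment.

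Detection was then compared region by region. Of the 2520 end regions 874 were detected in 2 to 7 libraries and could be tested, 1531 were found in 1 library and 115 in 8 or 9. Fisher's exact test was run on the 44043 testable regions of all sequences, with adjustment after Benjamini and Hochberg over all of them. It called 0 end regions, with a background share called of 0% and a lowest adjusted p of 0.753. The smallest p that 5 against 4 libraries allow is 0.00794, so a count of 0 does not show that detection was alike.

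At an unadjusted Fisher's exact p under 0.05, 4 end regions (0.458% of those tested) leaned to injured libraries and 44 (5.03%) to control libraries. The background shares over all regions tested were 0.213% and 4.27%. With 1 library left out, between 2 (without injured library 4) and 14 (without control library 1) end regions reached it in all. In those tests only a peak in every library of 1 group and in none of the other gives such a p. No background share was computed for them. At equal length the counts were 7 and 17 of 566 end regions tested (1.24% and 3.00%), with background shares of 0.674% and 2.43%. The median difference in detection was -10 percentage points among end regions tested and -10 over all regions tested in the lists as deposited, and -5 for both at equal length. The lean toward control libraries was therefore that of all regions, and it was smaller at equal length.

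A peak in every library of 1 group and in none of the other was found for 1 end region in each direction. The background shares were 0.0136% for every injured and no control library and 0.35% for every control and no injured library. The injured one, chr21:45920305-45920652 at 13.4 kb from the right end, had score percentiles of 34.4, 61.1, 62.2, 79.1 and 43.6 in injured libraries 1 to 5. At equal length 4 injured and 0 control libraries kept a peak there. The control one, chr3:62549563-62549829 at 78.7 kb from the right end, had percentiles of 60.2, 91.3, 94.6 and 92.9 in control libraries 1 to 4 and stayed in 4 control and 0 injured libraries at equal length. Percentiles were thus higher at the control region except in control library 1, whose 60.2 lay within the range of the injured region. Both had an unadjusted Fisher's exact p of 0.00794 and an adjusted p of 0.753. At equal length 0 end regions were exclusive to injured and 2 to control libraries, with background shares of 0.0346% and 0.212%.

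Next in order on the injured side were chr7:217312-218002, chr19:48082452-48082762 and chr3:62376489-62376861, each with a peak in 4 injured and 0 control libraries (Fisher's exact p = 0.0476). Their median percentiles were 58.6, 57.6 and 42.4, but the libraries differed widely. In the same order they ran from 28.3 to 84.8, from 13.8 to 76.5 and from 16.3 to 97.5 over the injured libraries with a peak. The last of the 5, chr3:62431074-62431667, was found in 5 injured and 2 control libraries (Fisher's exact p = 0.167). At equal length it was found in 5 injured libraries and 1 control library (unadjusted Fisher's exact p = 0.0476). There chr19:48082452-48082762 was left with 3 injured and 0 control libraries (Fisher's exact p = 0.167). The regions chr7:217312-218002 and chr3:62376489-62376861 stayed at 4 injured and 0 control libraries.

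On the control side came chr1:250094-250796, chr17:213180-214011, chr3:98705-99127 and chr19:48224477-48225014, each with a peak in 4 control libraries and 1 injured library (Fisher's exact p = 0.0476). On the control side 14 end regions with 4 control libraries and 1 injured library and 29 with 3 control and 0 injured libraries were tied at this p. The 4 named were chosen among the 14 for their high score percentiles, and the 14 had median percentiles from 27.7 to 91.2. In all 4 the injured library with a peak was injured library 1, which has the longest list of its group. At equal length chr1:250094-250796 was left with 3 control libraries and chr3:98705-99127 with 0 injured ones.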

How the data were processed

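Sperm ATAC-seq peak lists of 5 injured and 4 control libraries were used, 1 per library. Per the submitters' processing notes, the build was GRCz11 and the tools included MACS2, Bowtie2, Trim Galore, Picard and SAMtools, and further bedtools, deepTools, ChIPseeker, DESeq2 and DiffBind. Their versions and settings, the read shift for the transposase and the threshold for a peak are not stated in the sources used here. Gene groups and cell markers were not used, since no annotation of this build was used. The deposited score, at least 13 in every list and of unstated scale, served only to rank peaks within a list, with ties ordered by width and position. Per the labels' protocols, reads were 100 bp paired-end and 4.6 to 29 M were retained per library, which ties no depth to a library.

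Members, lists and tests were chosen with earlier results of these data known. Positions are 1-based. Densities used 24.0 Mb of ends and 1243 Mb of rest. Within-library contrasts were tested by exact sign flips over 512 assignments, groups by exact permutation over 126, both two-sided, and detection by Fisher's exact test. Named regions are the 10 strongest shared by 9 libraries, the first 5 in each direction by p, then by difference in detection and by median percentile, the 3 widest, and the 3 ends with most and fewest regions. Distance classes and flanks were chosen after values had been seen. Merging left 2 regions across the 500 kb limit, counted as ends. Computation used Python 3.11.15, NumPy 2.4.6, pandas 2.3.3 and SciPy 1.17.1.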

Additional observations from a re-analysis of the deposited data

Results flagged for a closer look

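At full list length 67.8% of the end regions of control library 2 had a peak in some other library, below the next control library at 71.02%. In control library 4 the same share at equal length was 83.6%, above the next at 78.8%. In injured library 1 the median score percentile of end peaks at equal length was 59.2, below the next injured library at 63.6. These are 3 values far from the others of their group among 56 groups of values examined, where chance would give about 2.8.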

How the results depend on the processing

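The excesses of the ends in density, tip density, score percentile and width kept their direction and stayed past the threshold under the alternatives run for each. Equal-length lists, the better-scored 50% of peaks and each library left out were run for all of them. Windows of 250 kb and 1 Mb were run for density, score percentile and width. Left or right ends alone were run for density and tip density. For right ends alone, tip density includes the peaks that set the boundaries, so that result is partly set by the rule. Width was not compared by side or with flanks. Leaving out the boundary peaks was added after seeing the data, for density and tip density and for both sides together. So were flanks of 0.5 to 2 Mb as background, for density and score percentile. Left ends without the outermost 100 kb, compared separately, did not exceed these flanks (ratio 1.01, exact permutation p = 0.730). Without 1 library the mean log2 density ratio was 0.59 to 0.65, that of the outermost 100 kb 0.45 to 0.48, the percentile excess 13.4 to 14.2 points and the width excess 21.1 to 24.5 bp. Against flanks of 0.5 to 2 Mb the log2 density ratio was 0.17 (exact permutation p = 0.00781). Between groups, the difference in end share changed sign at equal length (-0.171 points) and was 0.119 to 0.336 points without 1 library. The difference in number of end peaks passed the threshold without injured library 1 (-301.5) and for right ends alone (-140). Without 1 library it was -301.5 to -189, and at equal length -17.25 (exact permutation p = 0.643). Every injured list was shorter than every control list, and the cause was not tested. End regions with an unadjusted Fisher's exact p under 0.05 numbered 24 at equal length and 29 in the better-scored 50% in place of 48, and 2 to 14 without 1 library, where Fisher's exact test has fewer libraries. Without 1 library those were also the group-exclusive end regions, 2 to 14 in place of 2, since no other pattern reaches that p. The share over all regions was not computed for the better-scored 50% or without 1 library. The share of end regions detected in all libraries was 4.09% at equal length, 4.13% in the better-scored 50% and 3.95% in windows of 250 kb in place of 2.90%, and 3.13% to 3.43% when 8 libraries had to agree. Adjusted p called 0 end regions under every alternative run. The replicate block could call none, since its smallest p is 0.125. Without 1 library the smallest p before adjustment is 0.0179 or 0.0286, so a count of 0 there does not show that detection was alike. Without 1 library, chr21:45920305-45920652 and chr3:62549563-62549829 had Fisher's exact p of 0.0179 to 0.0286, and the other named regions with 4 libraries of 1 group rose to 0.143 at most. In the better-scored 50% of peaks, the difference in detection at chr21:45920305-45920652 was 60 percentage points in place of 100 (Fisher's exact p = 0.167). At chr3:62549563-62549829 it stayed at -100 points. The named regions with 4 injured and 0 control libraries fell from 80 points to between 20 and 60. On the control side chr1:250094-250796 moved from -80 to -55 points, and the other named regions did not weaken.

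Libraries with equal replicate numbers were paired as a replicate block over 4 pairs. Deviations of detection from the group means correlated at -0.0508 to 0.0283 for equal numbers and 1 of 4 injured libraries correlated best with its own number, so the numbers are not shown to pair the libraries. With the block the difference in end share was 0.279 points (exact permutation p = 0.375) and that in end peaks -195.5 (exact permutation p = 0.25). Group-exclusive end regions then numbered 5, and 0 end regions had an unadjusted p under 0.05, as 4 pairs allow no p below 0.125. The share over all regions was not computed for the block.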
